A study of Triticum urartu with 18 samples.

Results

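Endosperm, the storage tissue of the cereal grain, was compared with flag leaf, the uppermost leaf of the stem and a main source of sugar for the grain, at 10 days post anthesis (DPA) in Triticum urartu, the wild diploid wheat related to the A genome of bread wheat. The comparison used 6 of the 18 RNA-Seq libraries of a series on grain filling, chosen by the tissue and stage in the column headings: 3 of endosperm at 10 DPA and 3 of flag leaf at 10 DPA. The other 12 libraries are endosperm at 5, 15, 20 and 25 DPA. All 6 libraries came from wild-type, untreated plants of the accession PI 428198, so no allele or agent separates the groups. Per the labels, embryo, aleurone, seed coat and pericarp were taken off the endosperm, and its stages had independent biological replicates. The labels do not say how the leaf replicates were taken, so p-values measure the spread between these libraries, which may be technical in part. Each leaf title also carries an ending, not explained in the labels, that no endosperm title has. The values are FPKM (read fragments scaled to transcript length and to library size), and every share and ranking between genes below is on that length-scaled FPKM scale.

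A cereal endosperm cell imports sucrose, splits it with sucrose synthase, and builds ADP-glucose that starch synthases, branching enzymes and debranching enzymes turn into starch granules. At the same time it makes prolamins, the gliadins and glutenins that fold in the endoplasmic reticulum and serve as the nitrogen store of the grain. A leaf makes transient starch in its chloroplasts by day and exports sucrose, and grasses carry separate gene copies for many of these steps. The comparison therefore bears on which copy of each enzyme, and which member of each transcription factor family, each tissue used.

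The 6 libraries differed in quality between the tissues. Total FPKM ran from 1772166 to 1826023 in endosperm, and was 3061753, 1904257 and 1827651 in leaf libraries 1, 2 and 3. Read depth is unknown. A relative depth, read from the steps between low FPKM values, was 0.984 to 1.06 of that of endosperm library 1 in the other endosperm libraries, and 0.323, 0.537 and 0.604 in the leaf libraries, the leaf values resting on 17 to 21 genes each. Leaf library 1 stood apart: 6911 genes with at least 10 FPKM had a median log2 ratio of -1.15 to the mean of the other leaf libraries, and the 10 most abundant genes took 65.2% of its total FPKM, against 41.1% and 37.5% in leaf libraries 2 and 3. The endosperm libraries gave 45.6% to 47.1%, each of these figures being for a library's own 10 most abundant genes. Spearman correlations across genes, which are not independent replicates, were 0.913 to 0.914 within endosperm, 0.845 to 0.908 within leaf and 0.54 to 0.604 between the tissues. The main counts of calls are given with and without leaf library 1 below.

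The endosperm label matched its markers. The 26 endosperm marker genes (21 prolamins, TuGBSSI, TuWPBF, TuAGPL-cyto, TuAGPS-cyto and TuSuSy2) summed to 315900, 319500 and 322900 FPKM in the endosperm libraries, against 66.8, 169 and 173.8 in the leaf libraries. Every one of the 26 was higher in its lowest endosperm library than in its highest leaf library, against 59.1% of all tested genes whose libraries did not overlap between the tissues in either direction, and 4 of them were listed at 0 in all leaf libraries. For leaf, the table names no rubisco, chlorophyll-binding or photosystem gene. The 38 genes of the G2-like family, which includes regulators of chloroplast development, summed to 111, 120 and 116 FPKM in endosperm, against 286, 514 and 655 in leaf. In 15 of the 38 every leaf library was above every endosperm library, and in 6 the reverse held. TuGBSSII, the granule-bound starch synthase of leaves in wheat, overlapped between the tissues. For tissues stripped from the endosperm, TuFUS3, a B3 regulator of embryo and aleurone maturation, reached only 0.9, 0.85 and 1.37 FPKM in endosperm and was listed at 0 in leaf. The 5 YABBY genes, a family of organ polarity genes also active in ovary walls, summed to 67.2, 55.9 and 38.0 FPKM in endosperm, against 3.8, 4.52 and 5.37 in leaf, and 4 of the 5 were above their leaf range in every endosperm library. These are whole-tissue extracts, in which fewer cells of a type and less RNA per cell cannot be told apart.

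Endosperm and leaf differed at many genes, in both directions. Of 27121 genes, 16709 reached 1 FPKM in at least 3 of the 6 libraries and were tested with limma on log2(FPKM + 1), a scale that understates differences of low genes. A call needed a log2 difference, endosperm minus leaf, of at least 1 in size together with a Benjamini-Hochberg adjusted p below 0.05. By that rule 8153 genes (48.8%) were called, 3628 higher in endosperm (21.7%) and 4525 lower (27.1%). The median log2 difference of all tested genes was -0.01. After scaling each library by the median ratio over genes above 0 in all 6, that median was 0.26, and 4778 genes were higher (28.6%) and 4322 lower (25.9%). The calls shared by both scalings numbered 7851, and 0 of them pointed in opposite directions. Without leaf library 1, 3329 genes were higher and 5762 lower.

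Many tested genes were near silent in the other tissue. Among the 16709, 1708 reached 1 FPKM in no leaf library and 1398 in no endosperm library, so they passed the filter only through the tissue where they are high. A mean of at least 10 FPKM in endosperm went with a listed 0 in all 3 leaf libraries for 479 genes, 42 of them annotated. The reverse held for 316 genes, 17 of them annotated. The leaf libraries have the lower estimated depth, and 2923 genes were at 0 in leaf library 1 while the other leaf libraries averaged at least 1 FPKM, so the counts of leaf zeros and endosperm zeros are not on an equal footing. At the other end, 9 genes were among the 10 most abundant in all 6 libraries, and 0 of these 9 carry an annotation.

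**Figure D1:**
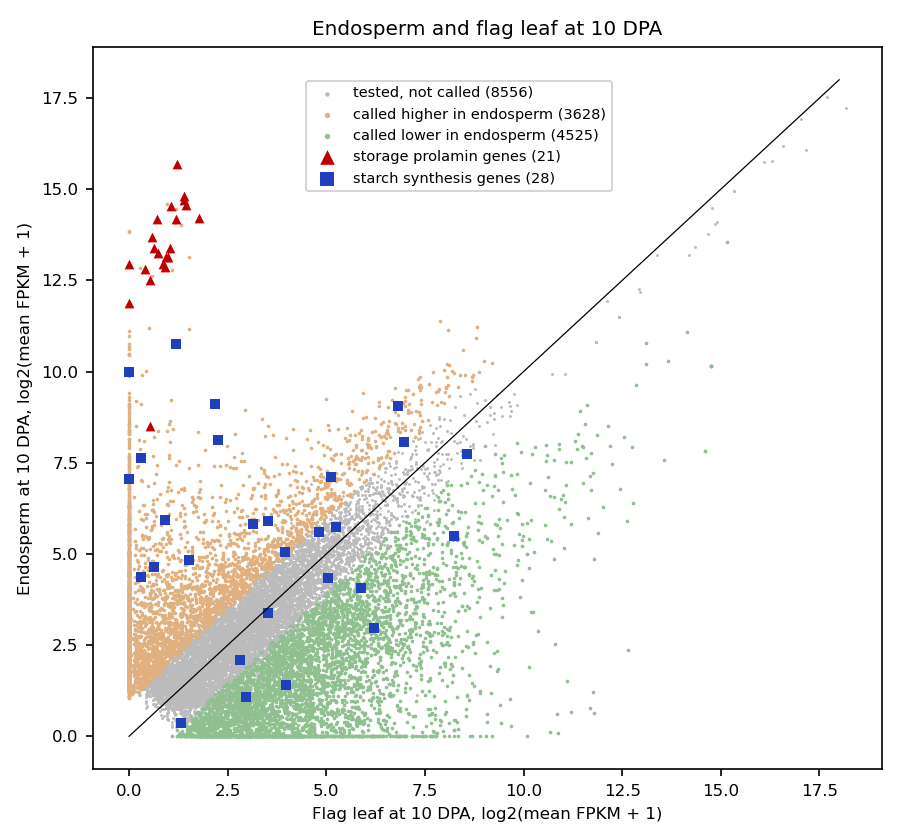
Mean expression in endosperm (vertical axis) against flag leaf (horizontal axis) at 10 DPA, both as log2(mean FPKM + 1) over 3 libraries, for the 16709 genes tested, with the diagonal marking equal values. The 21 prolamin genes sit near 0 on the leaf axis and high on the endosperm axis, while the 28 starch synthesis genes lie on both sides of the diagonal.

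The storage proteins gave the widest gap between the tissues. The table holds 21 prolamin genes, 16 gliadins, 3 low molecular weight glutenins and 2 high molecular weight glutenins, and all 21 were called higher in endosperm, against 21.7% of all tested genes. Their log2 differences ran from 8.10 for Gli-α-9 to 14.65 for Gli-γ-1, with a median of 12.56. No prolamin gene was under 297 FPKM in any endosperm library, and none exceeded 5.11 FPKM in any leaf library. The 10 largest positive differences among annotated genes were all prolamins.

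Gli-γ-1, a γ-gliadin, was at 53330, 52690 and 52671 FPKM in endosperm, against 0, 2.02 and 1.91 in leaf. The endosperm libraries differed by little from each other, and the leaf libraries were within a few FPKM of 0. Its log2 difference was 14.65 (SE 0.45, limma, Benjamini-Hochberg adjusted p = 8.2e-07). The low molecular weight glutenin TuA3-538a, one of the polymer-forming subunits of gluten, was at 25847, 26193 and 27775 FPKM in endosperm, against 1.12, 2.58 and 1.19 in leaf, a log2 difference of 13.35 (SE 0.31). TuGlu-1Ax, the x-type high molecular weight glutenin, was at 8481, 9239 and 11609 FPKM in endosperm, against 0.42, 0.74 and 0.87 in leaf, a log2 difference of 12.51 (SE 0.28). The tissues were far from overlapping in all of these genes. Gli-α-10 and Gli-α-4 were listed at 0 in every leaf library, and 25 of the 63 prolamin values in leaf were 0.

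Prolamins took 17.1%, 17.5% and 18% of the total FPKM in the endosperm libraries, against 0.000696%, 0.00102% and 0.000931% in the leaf libraries. The groups did not overlap, and the two-sided exact permutation p was 0.1, the smallest that 3 against 3 libraries can give (0.25 after Benjamini-Hochberg adjustment over 5 shares compared). Starch synthesis genes took 0.307% ± 0.0296 in endosperm and 0.0626% ± 0.034 in leaf (SD, n = 3 each, exact permutation p = 0.1, adjusted 0.25). Transcription factor genes took 0.451%, 0.449% and 0.463% in endosperm, against 0.18%, 0.543% and 0.688% in leaf. The endosperm shares lay inside the leaf range, and leaf library 1 was the low leaf value (exact permutation p = 1).

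Of the 12 individually named regulators and folding or transport factors, 11 were tested, and limma called 5 higher and 0 lower in endosperm (0 also at an unadjusted p under 0.05), against 21.7% and 27.1% of all genes. TuWPBF (TRIUR3_33098), a Dof factor of the prolamin-box binding type, which activates storage protein genes, was at 117, 138 and 126.5 FPKM in endosperm and listed at 0 in all leaf libraries. TuSPA (TRIUR3_18984), the bZIP storage protein activator of wheat, was at 17.9, 15.7 and 18.8 FPKM in endosperm and also listed at 0 in leaf. TuGAMYB (TRIUR3_27104), the gibberellin-responsive MYB that activates prolamin genes in barley, was at 41.6, 44.8 and 56.7 FPKM in endosperm, against 1.21, 0.36 and 1.27 in leaf (log2 difference 4.67, SE 0.36, limma adjusted p = 3.62e-05). TuWPBF, TuSPA and TuGAMYB were thus separated between the tissues in every library, whereas the regulators TuOHP1 and TuGCN5, given below, overlapped.

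The other individually named genes tested, among them factors that handle the protein after translation, differed less evenly. Tuglup3 (TRIUR3_18628), named after the rice locus for a vacuolar processing enzyme that matures glutelins, was at 1012, 1036 and 1054 FPKM in endosperm and listed at 0 in leaf. TuPdi (TRIUR3_24343), protein disulphide isomerase, which forms disulphide bonds in the endoplasmic reticulum, was at 2615, 2835 and 2558 FPKM in endosperm, against 108, 287 and 311 in leaf (log2 difference 3.64, SE 0.43, limma adjusted p = 0.000279). TuPdi was thus well expressed in both tissues, whereas Tuglup3 was not. Tuglup4 (TRIUR3_25319), a Rab5a GTPase needed for vacuolar transport of glutelin in rice, was at 20.8, 18.1 and 19.0 FPKM in endosperm, against 1.78, 6.37 and 14.2 in leaf. Its groups did not overlap, but the log2 difference of 1.58 missed the call (adjusted p = 0.058, limma), which it passed after median-ratio scaling (1.89). TuQM (TRIUR3_30652), a QM-type ribosomal protein, was not called either (0.94, limma adjusted p = 0.074), and was called after that scaling (1.24). Tuglup2 (TRIUR3_21622), Tuglup6 (TRIUR3_13259), TuOHP1 (TRIUR3_24233), a bZIP named for maize Opaque2 heterodimerizing protein, and TuGCN5 (TRIUR3_27913), a histone acetyltransferase, had log2 differences of 0.22 to 0.63 and missed the call.

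Starch synthesis genes leaned to endosperm, with a smaller number called on the leaf side. Of the 28 in the table, all tested, 16 were called higher in endosperm (57.1%), 5 lower (17.9%) and 7 neither, against 21.7% and 27.1% of all tested genes. Their median log2 difference was 1.73, against -0.01 over all tested genes. After median-ratio scaling 17 were higher and 5 lower, with a median of 2.02. Without leaf library 1, 14 were higher and 9 lower.

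**Figure D2:**
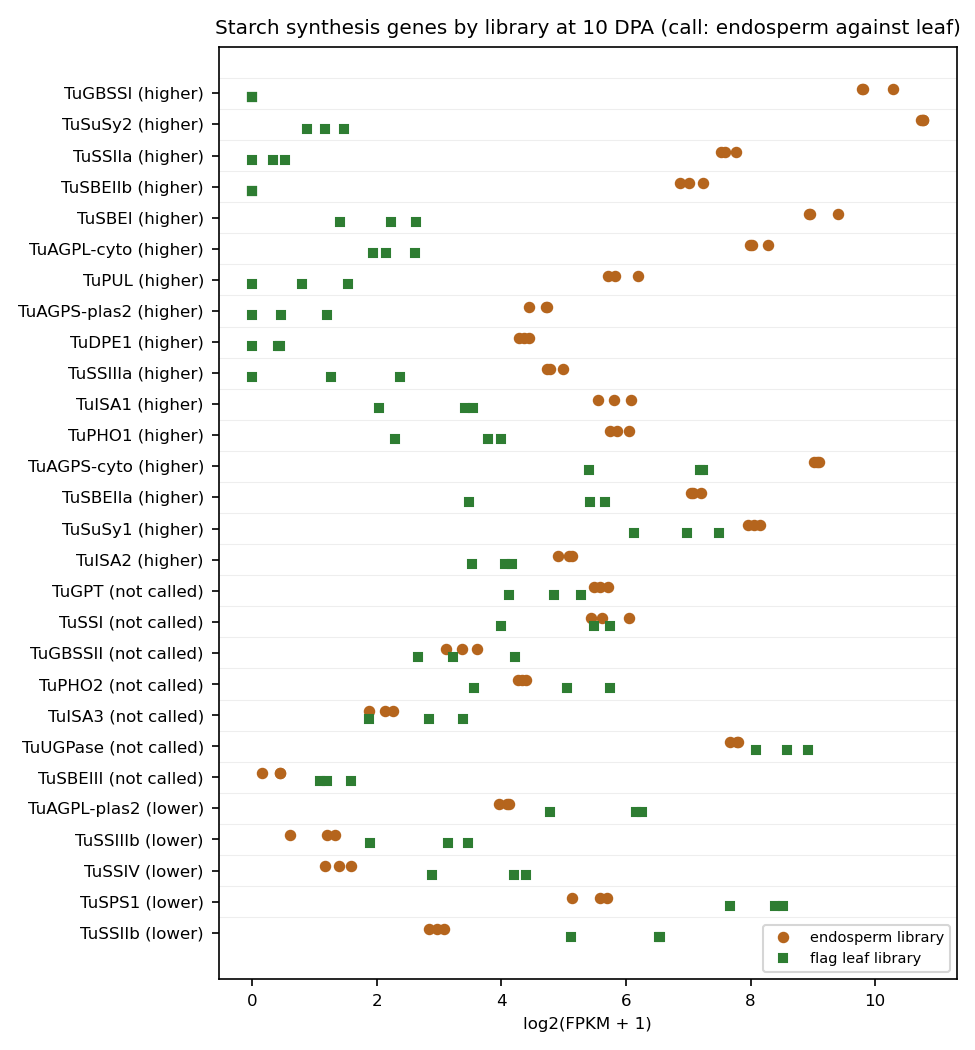
The 28 starch synthesis genes in each of the 3 endosperm (circles) and 3 flag leaf (squares) libraries at 10 DPA, as log2(FPKM + 1) on the horizontal axis, with each gene's call in brackets. TuGBSSI and TuSBEIIb are at 0 in all leaf libraries, and TuSPS1 and TuSSIIb are the genes furthest above endosperm in leaf.

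The genes that handle sucrose and its products differed in the size and direction of their tissue difference. TuSuSy2, a sucrose synthase, the enzyme that cleaves sucrose to UDP-glucose and fructose, was at 1700, 1741 and 1753 FPKM in endosperm, against 0.85, 1.26 and 1.78 in leaf. The leaf values were close to 0, and its log2 difference (9.58, SE 0.29, limma adjusted p = 7.74e-07) was the largest of the starch class among genes above 0 in leaf. TuSuSy1 was at 284, 266 and 248 FPKM in endosperm, against 68.8, 125 and 178 in leaf (log2 difference 1.20, SE 0.38, limma adjusted p = 0.0323). That call was lost without leaf library 1 (0.83), without leaf library 2 (limma adjusted p = 0.0658) and without any 1 of the endosperm libraries. It was also lost after total FPKM scaling (limma adjusted p = 0.0784), in the fit of all 18 libraries (limma adjusted p = 0.192) and, by size, under library weights (log2 difference 0.98). TuSPS1, sucrose-phosphate synthase, which makes sucrose for export, ran the other way, at 50.6, 34.3 and 47.2 FPKM in endosperm, against 203, 334 and 365 in leaf. Every leaf library was above every endosperm library (log2 difference -2.72, SE 0.34, limma adjusted p = 0.000355). TuUGPase, which interconverts UDP-glucose and glucose-1-phosphate, was at 202, 221 and 219 FPKM in endosperm, against 272, 382 and 487 in leaf, and missed the call (-0.79, limma adjusted p = 0.0661). Without leaf library 1 it was called lower in endosperm, at -1.01.

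ADP-glucose pyrophosphorylase, the enzyme that makes the glucose donor for starch, has large and small subunits, and the large subunits were split between the tissues. TuAGPL-cyto, the cytosolic large subunit, was at 260, 255 and 311 FPKM in endosperm, against 3.43, 2.85 and 5.15 in leaf. It was high in every endosperm library (log2 difference 5.87, SE 0.31, limma adjusted p = 7.21e-06). TuAGPL-plas2, a plastidial large subunit, was at 16.1, 14.6 and 16.5 FPKM in endosperm, against 26.5, 70.9 and 75.2 in leaf. Here all leaf libraries were the higher ones (log2 difference -1.67, SE 0.44, limma adjusted p = 0.0139). The call for TuAGPL-plas2 was lost at adjusted p of 0.0522 to 0.067 (limma) without leaf library 2 or any 1 of the endosperm libraries, and at 0.124 after total FPKM scaling.

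The small subunits were not split. TuAGPS-cyto was at 518, 533 and 548 FPKM in endosperm, against 41.2, 145.5 and 150 in leaf (log2 difference 2.45, SE 0.50, limma adjusted p = 0.0043). TuAGPS-plas2 was at 25.3, 20.8 and 25.7 FPKM in endosperm, against 0, 1.29 and 0.38 in leaf, a log2 difference of 4.08 (SE 0.40). The gene named cytosolic was thus the main small-subunit transcript of leaf as well. TuGPT, the glucose-6-phosphate translocator of plastids, was at 51.6, 43.9 and 47.0 FPKM in endosperm, against 16.4, 27.7 and 37.9 in leaf, and missed the call (0.85, limma adjusted p = 0.0903). It was called after median-ratio scaling, at 1.14.

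Starch synthases divided most by isoform. TuGBSSI, the granule-bound synthase that makes amylose in the grain, was at 898, 881 and 1245 FPKM in endosperm and listed at 0 in all leaf libraries. TuGBSSII was at 9.29, 11.2 and 7.62 FPKM in endosperm, against 5.33, 17.6 and 8.39 in leaf, and the groups overlapped (-0.01, limma adjusted p = 0.989; the sign turned to 0.27 after median-ratio scaling). TuSSIIa, which elongates amylopectin chains, was at 191, 184 and 218 FPKM in endosperm, against 0.44, 0.26 and 0 in leaf (log2 difference 7.34, SE 0.31, limma adjusted p = 2.69e-06). Its paralog TuSSIIb was at 7.45, 6.12 and 6.83 FPKM in endosperm, against 33.6, 92.3 and 91.6 in leaf (log2 difference -3.10, SE 0.44, limma adjusted p = 0.000702). Each of these paralogs was separated between the tissues, in opposite directions.

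The same opposition appeared in the third class of soluble synthase, at lower levels. TuSSIIIa was at 26.6, 25.6 and 30.9 FPKM in endosperm, against 0, 4.19 and 1.41 in leaf (log2 difference 3.62, SE 0.58, limma adjusted p = 0.0013). TuSSIIIb was at 1.51, 0.52 and 1.29 FPKM in endosperm, against 2.7, 7.83 and 10.1 in leaf (log2 difference -1.79, SE 0.48, limma adjusted p = 0.0157). That call for TuSSIIIb was lost without endosperm library 2 or 3 or leaf library 2, after total FPKM scaling (limma adjusted p = 0.0597) and, by size, at a pseudocount of 5 (-0.91). TuSSIV, linked to granule initiation, was at 1.62, 2.01 and 1.25 FPKM in endosperm, against 6.43, 17.5 and 20.0 in leaf (log2 difference -2.45, SE 0.47, limma adjusted p = 0.00302). TuSSI, which makes short amylopectin chains, overlapped between the tissues at 48.2, 42.4 and 65.2 FPKM in endosperm, against 14.9, 43.7 and 52.5 in leaf (0.63, limma adjusted p = 0.33).

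Branching enzymes, which add the side chains of amylopectin, were mostly higher in endosperm. TuSBEI was at 488, 498 and 680 FPKM in endosperm, against 1.67, 5.19 and 3.71 in leaf (log2 difference 7.01, SE 0.38, limma adjusted p = 8.19e-06). TuSBEIIb was at 128, 116 and 150 FPKM in endosperm and listed at 0 in all leaf libraries. Its paralog TuSBEIIa was at 133, 131 and 147 FPKM in endosperm, against 10.1, 41.8 and 50.0 in leaf (log2 difference 2.25, SE 0.56, limma adjusted p = 0.0112). The levels of TuSBEIIa and TuSBEIIb were thus close in endosperm, while in leaf TuSBEIIa was the only one of the pair above 0. The call for TuSBEIIa was lost, at limma adjusted p of 0.0508 to 0.0616, without any 1 of the endosperm libraries. TuSBEIII was under 3 FPKM in all 6 libraries, and its log2 difference of -0.94 was below the size needed for a call.

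Debranching and related enzymes were higher in endosperm or not called. TuISA1, the isoamylase that trims amylopectin during granule formation, was at 55.4, 45.7 and 66.5 FPKM in endosperm, against 3.11, 10.7 and 9.64 in leaf (log2 difference 2.81, SE 0.46, limma adjusted p = 0.00136). TuPUL, the pullulanase-type debranching enzyme, was at 51.4, 55.7 and 72.6 FPKM in endosperm, against 0, 1.91 and 0.75 in leaf, a log2 difference of 5.13. TuISA2, a partner subunit of isoamylase, was called at 1.13 (SE 0.31, limma adjusted p = 0.0183), and that call was lost in 9 of the 15 alternative fits, among them those without leaf library 1 or without any 1 of the endosperm libraries. TuPHO1, the plastidial starch phosphorylase, was at 57.0, 52.9 and 65.4 FPKM in endosperm, against 3.91, 14.9 and 12.8 in leaf (log2 difference 2.53, SE 0.48, limma adjusted p = 0.00284). Its cytosolic counterpart TuPHO2 overlapped, at 20.0, 18.2 and 19.1 FPKM in endosperm, against 10.9, 52.7 and 32.1 in leaf. TuDPE1, the plastidial disproportionating enzyme that rearranges glucan chains, was at 19.6, 18.5 and 20.7 FPKM in endosperm, against 0, 0.37 and 0.33 in leaf, a log2 difference of 4.07. TuISA3, an isoamylase of starch breakdown, overlapped at the lower edge (-0.61, limma adjusted p = 0.303).

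By calls, 2 of the 8 enzyme groups with at least 2 members were split, with a member called on each side: the large subunits of ADP-glucose pyrophosphorylase and the soluble starch synthases. The same 2 were split after median-ratio scaling. Without leaf library 1 the number was 5, with TuISA3 (-1.02), TuPHO2 (-1.07) and TuSBEIII (-1.04) added on the leaf side, and without leaf library 2 or any 1 of the endosperm libraries it was 1.

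The share of each isoform within its enzyme group does not depend on how a library is scaled, and in 7 of the 8 groups a different member led in each tissue. In endosperm TuSuSy2 held 86.7% ± 0.966 of the sucrose synthase FPKM, and in leaf it held 1.07% ± 0.131 (SD, n = 3 each, as for all shares here). TuAGPL-cyto held 94.6% ± 0.389 of the large-subunit FPKM in endosperm and 7.25% ± 3.87 in leaf. TuGBSSI held 99.0% ± 0.330 of the granule-bound synthase FPKM in endosperm and none in leaf. By share, these groups changed over almost wholly from 1 copy to the other, which does not mean that the leaf copy fell in endosperm. TuSuSy1 averaged 266 FPKM in endosperm and 124 in leaf, and TuGBSSII 9.38 in endosperm and 10.4 in leaf. Of the leaf leads in these groups, only TuAGPL-plas2 was called lower in endosperm.

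The larger groups changed over in part, again by share. TuSSIIa held 69.0% ± 1.61 of the soluble synthase FPKM in endosperm and 0.305% ± 0.400 in leaf, where TuSSIIb held 55.2% ± 2.88, against 2.39% ± 0.291 in endosperm. TuSSI kept a place in both tissues, with 17.96% ± 2.01 in endosperm and 27.3% ± 2.29 in leaf. TuSBEI held 67.2% ± 2.27 of the branching enzyme FPKM in endosperm and 10.1% ± 3.12 in leaf, and TuSBEIIa held 16.8% ± 1.53 in endosperm and 84.8% ± 6.29 in leaf. TuPHO1 held 75.3% ± 1.86 in endosperm and 25.7% ± 3.29 in leaf, the remainder being TuPHO2. TuISA1 led the isoamylases in endosperm with 60.9% ± 3.79, against 26.2% ± 6.96 in leaf, where TuISA2 led with 53.3% ± 9.73, against 35.4% ± 2.79 in endosperm. The exception among the 8 groups was the small subunit, where TuAGPS-cyto held 95.7% ± 0.479 in endosperm and 99.6% ± 0.452 in leaf. The libraries of the tissues did not overlap in any of the 23 shares or the 8 group sums. Of all tested genes, 59.1% did not overlap either. Each of the 31 comparisons of shares and sums had the smallest exact permutation p possible, 0.1, two-sided. Adjustment over 31 equal values leaves it at 0.1. Shares within a group are tied to each other, so the 31 are not independent.

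**Figure D3:**
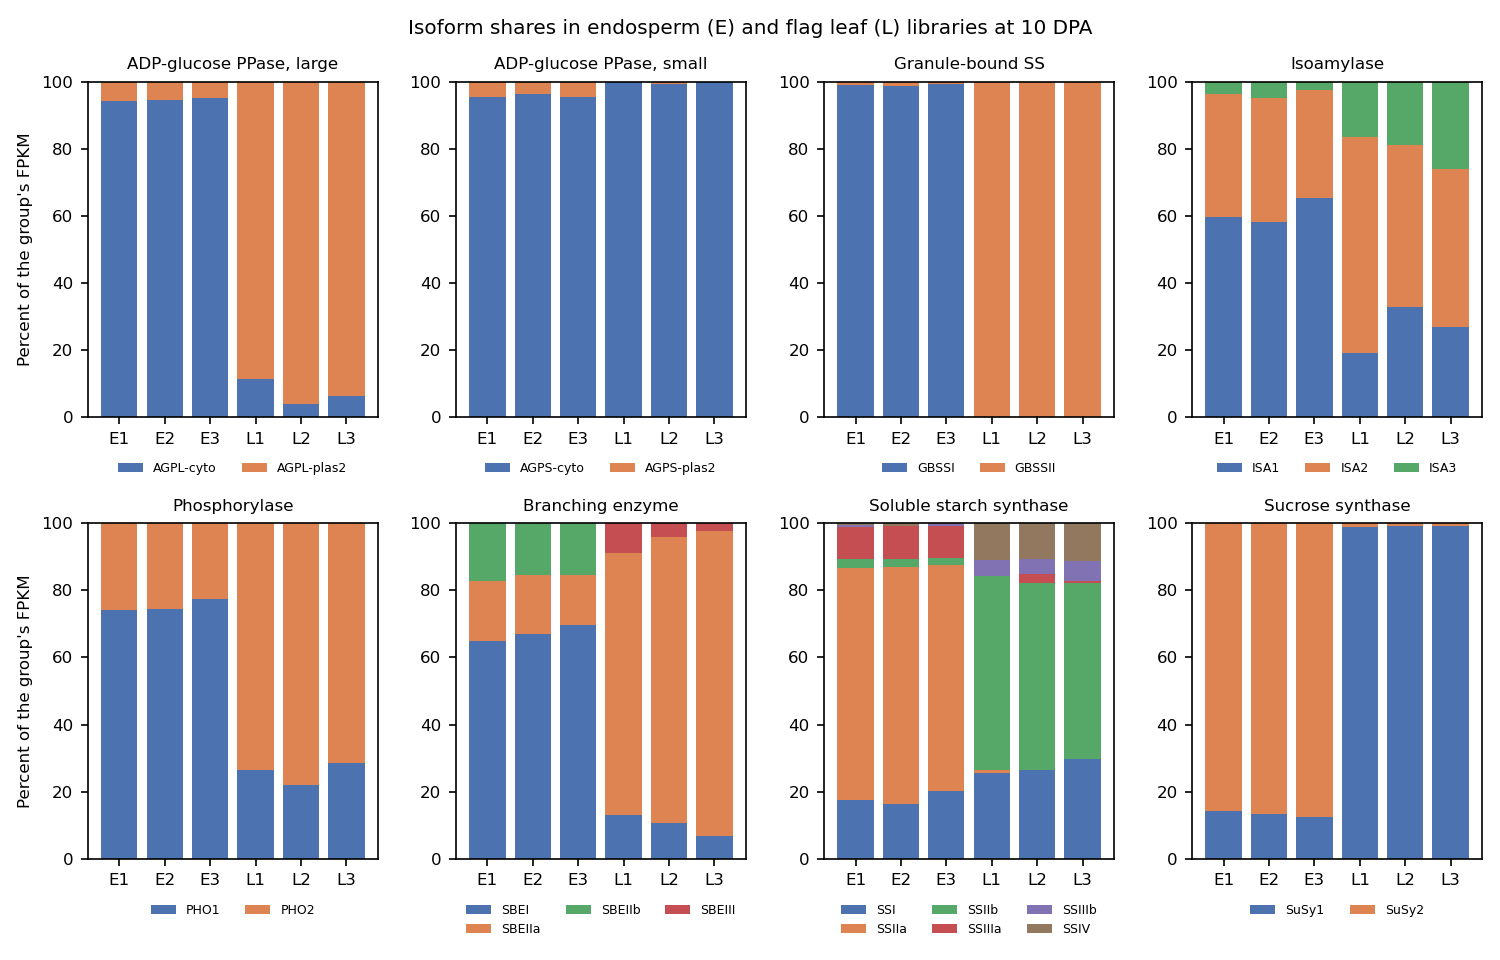
Percent of each enzyme group's summed FPKM held by each isoform in the 3 endosperm libraries (E1 to E3) and the 3 flag leaf libraries (L1 to L3) at 10 DPA, as stacked bars that add to 100. TuGBSSI, TuSuSy2 and TuAGPL-cyto fill 85% or more of the endosperm bars and under 12% of the leaf bars, while TuAGPS-cyto fills over 95% in both.

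The summed level of every group was higher in endosperm as well, by amounts that differed. Sucrose synthase summed to 1997 ± 11.7 FPKM in endosperm and 125 ± 55.3 in leaf, granule-bound synthase to 1017 ± 204 in endosperm and 10.4 ± 6.36 in leaf, and branching enzyme to 824 ± 133 in endosperm and 39.0 ± 22.8 in leaf (SD, n = 3 each). Soluble synthase was nearer, at 287 ± 32.6 FPKM in endosperm and 133 ± 65.2 in leaf, as was phosphorylase, at 77.5 ± 6.72 in endosperm and 42.4 ± 26.5 in leaf. Leaf library 1 gave the lowest leaf sum in all 8 groups.

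The leading isoform of leaf also led in young endosperm in some groups. The other endosperm stages are given here as values only, and they are compared with the same 3 leaf libraries. The same isoform led in all libraries of endosperm and leaf for 4 of the 8 groups at 5 DPA (granule-bound synthase, phosphorylase, branching enzyme and sucrose synthase), for 1 group at 10 DPA (the small subunit), and for 2 groups at each of 15, 20 and 25 DPA. TuGBSSI held 27.4% ± 5.27 of its group at 5 DPA, 99.0% ± 0.330 at 10 DPA and 98.7% at 15 DPA. TuSuSy2 held 33.7% ± 3.01 at 5 DPA, 86.7% ± 0.966 at 10 DPA and 47.1% ± 8.35 at 15 DPA. TuSBEI held 20.3% ± 1.91 at 5 DPA, 67.2% ± 2.27 at 10 DPA and 93.8% ± 0.568 at 15 DPA. The 10 DPA libraries were thus the high point of TuSuSy2 among these 3 stages, and a middle value for TuSBEI.

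Other groups did not follow that order. TuAGPL-cyto held 93.2% ± 1.44 at 5 DPA and 97.6% at 15 DPA, so the endosperm large subunit was of the cytosolic kind throughout these stages. TuAGPS-cyto held 46.0% ± 1.63 at 5 DPA, when TuAGPS-plas2 led, and 96.1% at 15 DPA. TuSSIIa held 77.6% ± 2.77 at 5 DPA and 19.4% ± 7.26 at 15 DPA, when TuSSI led with 40.5% ± 1.53. TuSSIIb, the leading soluble synthase of leaf, led in no library of endosperm at 5, 10 or 15 DPA. At 20 DPA the group sums were between 0 and 24.1 FPKM, so leads at that stage rest on low values.

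**Figure D4:**
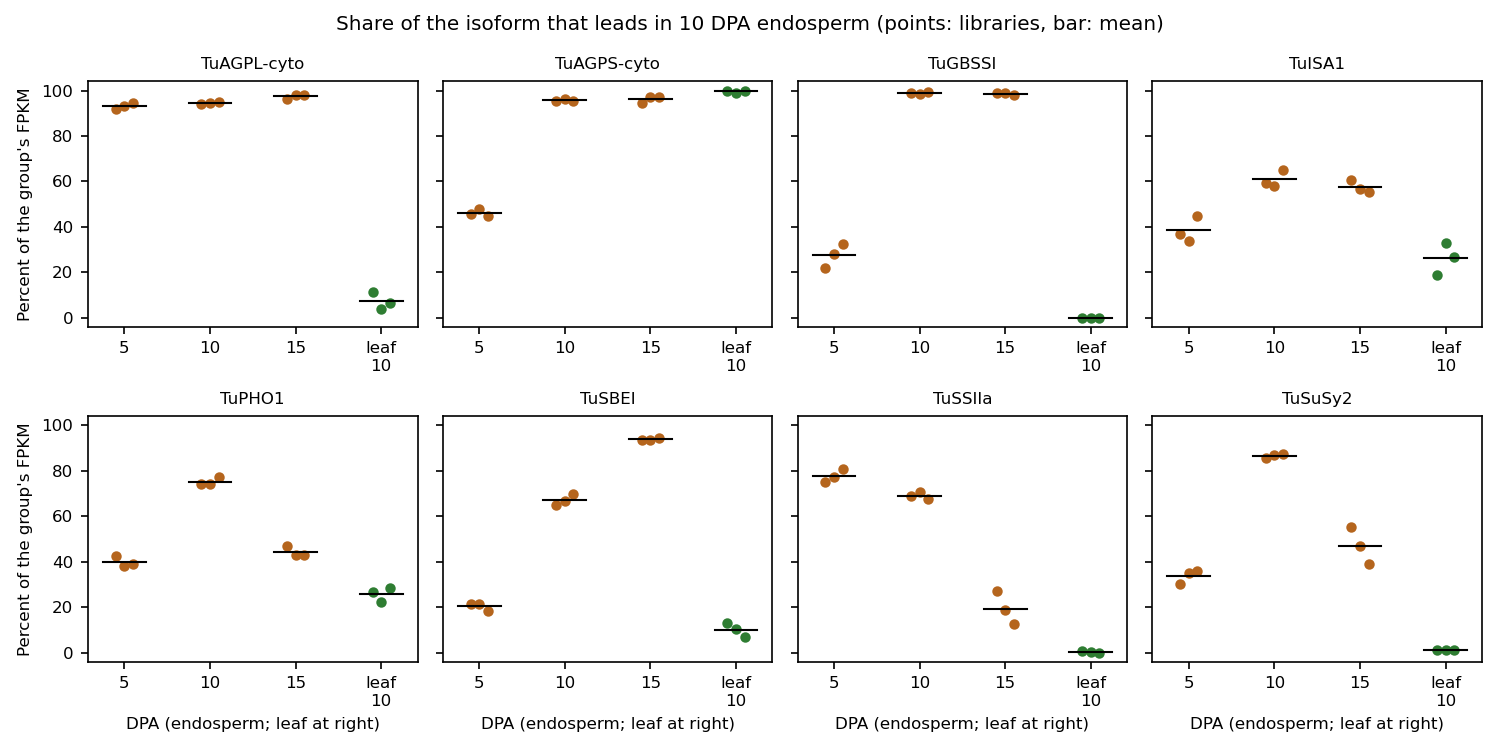
Share (percent of the enzyme group's summed FPKM) of the isoform that led in 10 DPA endosperm, in endosperm at 5, 10 and 15 DPA and, at the right of each panel, in flag leaf at 10 DPA, with points for libraries and a bar for the mean of 3; 20 and 25 DPA are not drawn. TuGBSSI, TuSuSy2, TuSBEI and TuPHO1 are under 50% at 5 DPA and over 60% at 10 DPA, and TuAGPL-cyto stays over 90% at these stages against 7.25% in leaf.

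Transcription factor genes were called at about the background rate and within most families in both directions. Of 1103 in the table, 641 were tested, 157 were higher in endosperm (24.5%) and 185 lower (28.9%), against 21.7% and 27.1% of all tested genes. Their median log2 difference was 0.08. After median-ratio scaling 206 were higher and 180 lower. Of the 641, 103 reached 1 FPKM in no leaf library and 64 in no endosperm library, so the family counts below cover tested members and not whole families. Apart from the named regulators, the table gives these genes a family only, so no role of a single gene is stated.

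Of the 33 families with at least 5 tested members, 26 had at least 1 member called higher and at least 1 called lower, and the same 26 were split after median-ratio scaling. Of all tested genes, 21.7% were higher and 27.1% lower, so a group of several genes can hold both kinds whatever its family. How many splits sets of unrelated genes would give was not tested. More members were higher than lower in 14 families and more were lower in 13, with 6 even. That balance depended on the processing. After median-ratio scaling the numbers were 20, 10 and 3, and without leaf library 1 they were 9, 20 and 4, with MYB_related, ARF and HSF turning from more higher to more lower calls.

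**Figure D5:**
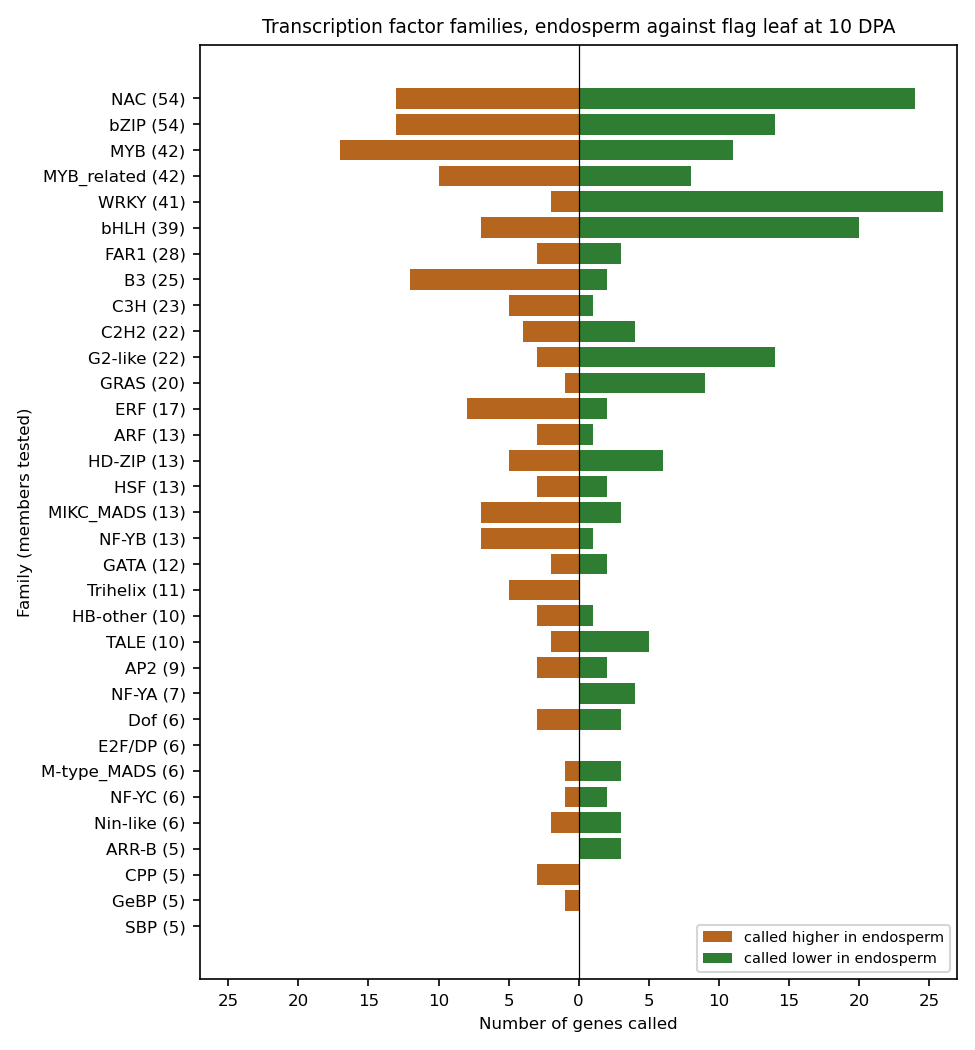
Number of genes called higher (left of 0) and lower (right of 0) in endosperm than in flag leaf at 10 DPA, for each of the 33 transcription factor families with at least 5 tested members, the number tested being in brackets. WRKY (2 higher, 26 lower) and G2-like (3 and 14) lean to leaf, and B3 (12 and 2) and NF-YB (7 and 1) lean to endosperm.

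Several families leaned to leaf by count, beside 21.7% higher and 27.1% lower over all tested genes. NAC exceeded both shares, with 24.1% higher and 44.4% lower. TALE, ARR-B, M-type_MADS and Nin-like, not detailed here, also had more lower than higher calls. WRKY genes, many of which act in defence and senescence, had 2 of 41 tested members higher in endosperm and 26 lower, with a median log2 difference of -1.74. G2-like genes had 3 of 22 higher and 14 lower (median -1.78), bHLH genes 7 of 39 higher and 20 lower (-1.26), NAC genes 13 of 54 higher and 24 lower (-0.95), and GRAS genes, the family of the DELLA repressors of gibberellin signalling, 1 of 20 higher and 9 lower (-1.04). The NF-YA subunit of the CCAAT-binding complex had 0 of 7 higher by limma (0 also at an unadjusted p under 0.05) and 4 lower. After median-ratio scaling each of these families still had more lower than higher calls. Without leaf library 1 there were 2 higher and 29 lower in WRKY, 3 and 15 in G2-like, 7 and 21 in bHLH, 13 and 27 in NAC, 1 and 13 in GRAS, and 0 and 5 in NF-YA.

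Some of the families that leaned to endosperm include regulators of seed development in other plants. Their counts stand beside 21.7% higher and 27.1% lower over all tested genes. CPP, HB-other and C3H, among others not detailed here, also had more higher than lower calls, though C3H was even without leaf library 1 (3 and 3). B3 genes, the family of seed maturation factors such as FUS3, had 12 of 25 higher and 2 lower (median 1.07). NF-YB genes, the family of LEC1 in Arabidopsis, had 7 of 13 higher and 1 lower (1.55), and ERF genes, of the ethylene response type, 8 of 17 higher and 2 lower (0.67). MYB genes had 17 of 42 higher (40.5%) and 11 lower (26.2%), the lower share being near that of all tested genes, with a median of 0.70. Trihelix genes had 5 of 11 higher and 0 lower by limma (0 also at an unadjusted p under 0.05), with a median of 1.55. MIKC_MADS genes, whose best known members set floral organ identity and ovule and seed coat development, had 7 of 13 higher and 3 lower (1.10). Beside that count, the 20 MIKC_MADS genes in the table summed to 428, 389 and 405 FPKM in endosperm, against 41.6, 76.4 and 117 in leaf, and the YABBY sums above were also higher in endosperm. Whether residual seed coat or pericarp contributed was not tested. bZIP genes were nearly even, with 13 of 54 higher and 14 lower (0.19), or 18 and 13 after median-ratio scaling and 12 and 18 without leaf library 1. Dof genes had 3 of 6 on each side in all of these fits. Without leaf library 1 the families detailed here as leaning to endosperm had 13 higher and 3 lower in B3, 7 and 2 in NF-YB, and 8 and 4 in ERF. There were 16 and 12 in MYB, 6 and 3 in MIKC_MADS, and 5 and 2 in Trihelix, so the count of 0 for Trihelix was lost.

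Most families were led by different genes in each tissue. By summed FPKM over the 3 libraries of a tissue, 29 of the 33 families had a different leading member, and in 23 no gene that led in any endosperm library led in any leaf library. The exceptions with the same lead were C3H, FAR1, GeBP and TALE. In 11 families 1 gene led in all 3 libraries of each tissue, and in 8 of these the leads differed: ARF, bHLH, C2H2, GATA, HB-other, HD-ZIP, MYB_related and Nin-like.

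Some leads nearly filled their family. TuWPBF held 86.0% to 90.1% of the Dof FPKM in endosperm and none in leaf. In leaf TRIUR3_08744 held the most by mean, with 28.9% to 49.3%, against 0.267% to 1.09% in endosperm, although TRIUR3_32855 led in leaf library 1. TRIUR3_08744 was at 1.48, 1.05 and 0.38 FPKM in endosperm, against 9.18, 35.5 and 38.2 in leaf (log2 difference -3.67, SE 0.58, limma adjusted p = 0.00116). Among NF-YC genes, the C subunit of the CCAAT-binding complex, TRIUR3_29815 held 82.0% to 83.6% in endosperm, with 439, 457 and 450 FPKM, and was listed at 0 in leaf. The leaf lead by mean was TRIUR3_12611, with 36.7% to 47.1% in leaf and 10.6% to 11.6% in endosperm, so it was present in both tissues. TRIUR3_09240, of the same family, led only in leaf library 3. It was at 1.98, 1.87 and 2.04 FPKM in endosperm, against 71.7, 89.5 and 97.2 in leaf (log2 difference -4.87, SE 0.30, limma adjusted p = 1.37e-05). The Dof and NF-YC families thus each held a gene near silent in leaf and another near silent in endosperm.

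The GATA family, zinc finger factors some of which act in light and nitrogen responses, changed its lead completely between the tissues. TRIUR3_20013 was at 36.8, 38.3 and 38.6 FPKM in endosperm, against 3, 8.9 and 4.74 in leaf (log2 difference 2.67, SE 0.40, limma adjusted p = 0.000859). It held 29.8% to 32.5% of the family FPKM in endosperm and 3.18% to 6.1% in leaf. TRIUR3_30842 was at 0.46, 0.87 and 1.4 FPKM in endosperm, against 21.5, 46.1 and 44.1 in leaf (log2 difference -4.28, SE 0.42, limma adjusted p = 0.000112). Its share was 0.372% to 1.17% in endosperm and 29.5% to 32.8% in leaf, the mirror of the other gene.

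The homeobox families HD-ZIP and HB-other showed the same exchange. TALE, also of homeobox genes, did not, since TRIUR3_32159 led it in all 6 libraries. In HD-ZIP, homeodomain genes with a leucine zipper, TRIUR3_16941 was at 25.0, 23.6 and 20.7 FPKM in endosperm, against 0, 0 and 0.27 in leaf, and TRIUR3_11780 was at 0.85, 3.23 and 3.04 FPKM in endosperm, against 14.7, 27.8 and 22.6 in leaf (log2 differences 4.47 and -2.80). In HB-other, TRIUR3_24308 was at 52.4, 66.1 and 60.9 FPKM in endosperm, against 0.8, 0 and 0 in leaf, and TRIUR3_23073 at 4.46, 3.61 and 1.31 FPKM in endosperm, against 46.7, 54.6 and 55.4 in leaf (5.64 and -3.78). These genes, chosen as called and abundant, were each at 4.46 FPKM or less in every library of 1 tissue. In C2H2, a zinc finger family, the exchange was partial: TRIUR3_21067 was at 132, 159 and 142 FPKM in endosperm, against 14.7, 36.4 and 32.9 in leaf (2.42, SE 0.39), while TRIUR3_01525 was at 38.4, 36.4 and 29.1 FPKM in endosperm, against 60.8, 89.6 and 126 in leaf (-1.33, SE 0.35). The call for TRIUR3_01525 was lost under total FPKM scaling, in the fit of all 18 libraries and without endosperm library 2 or 3.

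In bZIP, a family of basic leucine zipper factors that includes TuSPA, TRIUR3_12850 was at 1.34, 0 and 0.69 FPKM in endosperm, against 273, 429 and 414 in leaf, where it held 30.1% to 36.9% of the family. It had the most negative difference of any annotated gene in the named set (-7.85, SE 0.41, limma adjusted p = 6.54e-06). In endosperm TRIUR3_31111 was the called bZIP gene with the highest mean, at 58.2, 56.8 and 67.9 FPKM, or 8.05% to 9.72% of the family, and it was listed at 0 in leaf. The leading bZIP gene of endosperm thus held a smaller share of its family than that of leaf. TRIUR3_01653, another bZIP gene, was listed at 0 in endosperm and stood at 37.6, 59.1 and 65.6 FPKM in leaf.

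In NAC, a plant-specific family with members in senescence and in grain storage regulation, TRIUR3_00447 was at 171, 188 and 235 FPKM in endosperm and listed at 0 in leaf. TRIUR3_04286 was at 9.09, 2.21 and 6.19 FPKM in endosperm, against 175, 229 and 209 in leaf (log2 difference -5.05, SE 0.45, limma adjusted p = 6.98e-05). The family thus held strong members on both sides although it leaned to leaf by count. In MIKC_MADS, TRIUR3_28216 was at 161, 145 and 132 FPKM in endosperm and listed at 0 in leaf, and TRIUR3_32699 was at 3.34, 0 and 1.71 FPKM in endosperm, against 12.3, 30.5 and 49.7 in leaf (-3.61, SE 0.68). In NF-YB, TRIUR3_06646 was at 42.0, 28.9 and 24.2 FPKM in endosperm, against 0, 0 and 9.51 in leaf (3.86, SE 0.88), and TRIUR3_16080 was at 1.92, 2.42 and 2.63 FPKM in endosperm, against 26.6, 61.1 and 43.8 in leaf (-3.68). The leaf library at 9.51 FPKM was the exception to the near silence of TRIUR3_06646 in leaf.

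The 10 largest negative differences among annotated genes averaging 10 FPKM or more in leaf were spread over several families. These were bZIP, WRKY, MYB, MYB_related, G2-like, NAC and NF-YC, in a ranking that leaves out the unannotated genes. WRKY TRIUR3_29889 was listed at 0 in endosperm and stood at 47.6, 61.4 and 107 FPKM in leaf, and WRKY TRIUR3_17462 was at 0.83, 0.59 and 0.21 FPKM in endosperm, against 20.3, 42.9 and 177 in leaf (-5.18, SE 0.73). The leaf libraries of TRIUR3_17462 were spread widely, with library 3 the highest, but all lay above endosperm. The exception to the WRKY trend with the highest mean was TRIUR3_26868, at 20.6, 20.8 and 21.2 FPKM in endosperm and listed at 0 in leaf. In G2-like, TRIUR3_07027 was at 8.22, 8.49 and 8.08 FPKM in endosperm, against 50.5, 113 and 129 in leaf (-3.30, SE 0.40), and TRIUR3_20779 was at 1.58, 0.3 and 1.29 FPKM in endosperm, against 55.9, 65.3 and 139 in leaf (-5.36, SE 0.47). Within MYB, which leaned to endosperm, TRIUR3_22432 was at 1.44, 0 and 0.49 FPKM in endosperm, against 74.0, 113 and 53.8 in leaf (-5.66, SE 0.46).

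Some families with more higher than lower calls also held genes of the other kind. In B3, TRIUR3_21370 was at 33.8, 31.8 and 33.6 FPKM in endosperm, against 1.11, 0 and 1.17 in leaf (4.36), and TRIUR3_10779 was at 3.77, 0.89 and 0.98 FPKM in endosperm, against 21.7, 22.3 and 21.9 in leaf (-3.14). In ERF, TRIUR3_18522 was at 288, 295 and 293 FPKM in endosperm, against 51.3, 121 and 120 in leaf (1.68, SE 0.39, limma adjusted p = 0.00746), so it was strong in both tissues. ERF gene TRIUR3_27883 was at 6.89, 9.22 and 3.53 FPKM in endosperm, against 10.9, 17.4 and 19.4 in leaf (-1.20, limma adjusted p = 0.0461). The call for TRIUR3_27883 was lost in several alternative fits, among them median-ratio scaling (-0.93). In HSF, the heat shock factors, with 3 of 13 higher and 2 lower, but 2 and 6 without leaf library 1, TRIUR3_19594 was at 16.0, 18.9 and 19.3 FPKM in endosperm, against 5.02, 4.47 and 7.25 in leaf (1.55), and TRIUR3_18146 was at 0.3, 0 and 0 FPKM in endosperm, against 11.9, 20.2 and 39.7 in leaf (-4.36). The calls for TRIUR3_18522 and TRIUR3_19594 were lost when all 18 libraries shared 1 fit. Trihelix TRIUR3_33328, at 42.5, 40.6 and 48.4 FPKM in endosperm, against 1.22, 0.97 and 0.85 in leaf (4.48), and CPP TRIUR3_14039, at 32.2, 35.8 and 32 FPKM in endosperm, against 0, 0.29 and 0.25 in leaf (4.87), came from families with 0 members called lower by limma (0 also at an unadjusted p under 0.05), although Trihelix had 2 without leaf library 1. Only 11 Trihelix and 5 CPP genes were tested, and 27.1% of all tested genes were lower.

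The unannotated genes make up 16012 of the 16709 tested, and their calls were at the background rate, with 3432 higher in endosperm (21.4%) and 4335 lower (27.1%), against 21.7% and 27.1% of all tested genes. The called genes with the highest mean included TRIUR3_29051, at 24943, 24303 and 25528 FPKM in endosperm, against 1.34, 0.8 and 0.71 in leaf (13.66, SE 0.27), a level like that of the abundant prolamins. On the other side, TRIUR3_13501 was at 1455, 1436 and 518 FPKM in endosperm, against 40486, 22247 and 19528 in leaf (-4.66, SE 0.50, limma adjusted p = 0.000172). Its values are identical to those of 3 other unannotated genes, so reads shared among them cannot be assigned to any 1.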

How the data were processed

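RNA-Seq of 6 libraries (3 of endosperm and 3 of flag leaf at 10 DPA) was analysed from the authors' deposited table, which gives 1 FPKM value per gene and library. Bowtie 0.12.2 is named in the submitters' processing notes, whereas the genome build, annotation and counting program were not given in the sources used here. Headings name each column's group but no sample title, so the library numbers follow the columns. They do not pair the tissues (same-number correlations of deviations 0.00243 to 0.0352), and no block was used.

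The test was run on log2(FPKM + 1) by limma 3.58.1 under R 4.3.3 (moderated variances with a mean trend, two-sided, Benjamini-Hochberg over the 16709 genes with at least 1 FPKM in 3 libraries). Calls needed an adjusted p under 0.05 and a log2 difference of at least 1. Shares used exact permutation tests. Read depth is unknown, so no counting interval is given, and zeros are reported only as listed. In 530 profiles, 1371 genes above 0 in the series hold values identical to another gene's over all 18 libraries.

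On simulated data with 16709 genes for this comparison, 35 of 100 changes of log2 size 2 were recovered. Of the changes of size 4, 87 of 100 were recovered, and there were 5 false calls. The data gave 8153 calls, far more than the changes simulated. The leaf library that stood apart had a median log2 ratio of -1.15 to the mean of the other leaf libraries. How many false calls such a library-wide shift gives was not tested, so the 5 false calls are no error rate for the data. Named genes were the 10 largest called differences per direction among annotated genes without overlap and with a mean of at least 10 FPKM, all starch genes, the top prolamins, the regulators, the most abundant called member per direction in each family, and 2 unannotated genes per direction. A family is the table's class, with 4 named regulators added to theirs. The members and lists were chosen with earlier results of these data known. Alternatives were other pseudocounts, filters, scalings, library weights, a replicate block, all 18 libraries in the fit, and each library left out.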

Additional observations from a re-analysis of the deposited data

How the results depend on the processing

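Over 15 alternative fits, all 21 prolamin genes stayed called and 21 to 27 transcription factor families were split, against 26. Calls shared with the reported fit kept their direction in every one of these fits. A pseudocount of 5 left 2276 genes higher in endosperm, against 3628. Scaling to equal total FPKM left 3 starch genes lower, against 5, and 1 split enzyme group, against 2, and library weights gave 4 split groups. The cause was not tested. Leaving out 1 library at a time gave 2866 to 3993 genes higher and 3671 to 5762 lower, 13 to 17 starch genes higher and 3 to 9 lower, 1 to 5 split enzyme groups, and 24 to 27 split families. The prolamin share difference stayed at 17.3 to 17.75 percentage points and the starch share difference at 0.2254 to 0.2576, as alternatives chosen after seeing the data. The replicate block, for numbers that pair nothing here, gave 3622 higher and 4476 lower, of 8098 calls 7770 shared, with 15 starch genes higher and 5 lower and 2 split groups.

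Among the named genes, signs turned only for genes without a call. TuGBSSII (-0.01) turned to 0.0042 at a pseudocount of 0.1, 0.27 after median-ratio scaling and 0.23 after total FPKM scaling. Library weights turned TuGCN5 (TRIUR3_27913) to -0.14 and TuOHP1 (TRIUR3_24233) to -0.12. Leaving out 1 library at a time gave -0.36 to 0.41 for TuGBSSII (positive without endosperm library 3 or leaf library 2) and -1.07 to 0.018 for TuPHO2 (positive without leaf library 2). It gave -0.20 to 0.76 for TuGCN5, -0.15 to 0.42 for TuOHP1 and -0.13 to 1.08 for Tuglup6 (TRIUR3_13259), each negative without leaf library 1. The cause was not tested.

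Depth limits the leaf side most, at an estimated 0.323 to 0.604 of that of endosperm library 1, so a leaf value of 0 is no sign of absence. In the weighted fit the endosperm libraries had weights of 1.64 to 2.22, and leaf libraries 1, 2 and 3 had 0.0969, 1.95 and 0.763.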

Other observations

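The table holds 56 genes whose identifiers start with EPlTURG rather than TRIUR3, a group chosen after its values were seen. Of the 47 tested, limma called 0 higher in endosperm (0 also at an unadjusted p under 0.05) and 38 (80.9%) lower, against 21.7% and 27.1% of all tested genes, with a median log2 difference of -2.98. After median-ratio scaling 0 were higher and 34 lower. What these identifiers stand for is not given in the sources used here.

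Of annotated genes, 17 averaged at least 10 FPKM in leaf and were listed at 0 in all endosperm libraries, among them 4 WRKY genes (TRIUR3_29889, TRIUR3_03043, TRIUR3_26595 and TRIUR3_24021) and 3 bZIP genes (TRIUR3_01653, TRIUR3_21208 and TRIUR3_31678). WRKY TRIUR3_03043 stood at 16.8, 28.9 and 44.7 FPKM in leaf. The 42 genes of the opposite kind, listed at 0 in leaf, held 7 bZIP, 5 NAC, 5 MYB and 5 MIKC_MADS genes, TuGBSSI, TuSBEIIb and TuWPBF.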
